A study of Saccharomyces cerevisiae with 6 samples.

Results

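The genes described here encode the proteins of the small subunit of the cytosolic ribosome of the yeast Saccharomyces cerevisiae. They were chosen by name, as every gene probe whose symbol is RPS followed by a number and, where there are copies, the letter A or B. The rule found 56 genes among the 6256 gene probes of the array, and it used no measured value. The 56 genes form 32 families, of which 24 have an A and a B gene and 8 have a single gene. All 56 were well above background on all 6 arrays, so none was lost to the filter on dim probes.

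Total RNA was taken from the haploid laboratory strain BY4741, labelled wild type, and from the same background with a PHO80 deletion, each after 6 h of xylose fermentation with xylose at 80 g/l. The PHO80 product is the cyclin partner of the kinase Pho85, and with ample phosphate the complex keeps Pho4, the activator of phosphate-response genes, in the cytoplasm. Each strain was hybridised in 1 colour to 3 arrays. All values below are log2 signals relative to the 75th percentile of their array, and a log2 fold change is the deletion strain minus wild type. The labels do not say that the 3 arrays of a strain came from separate cultures.

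The small subunit binds the messenger RNA, decodes it and carries the initiator transfer RNA, while the large subunit forms the peptide bonds. Ribosomal protein genes are among the most heavily transcribed genes of growing yeast. Their promoters are controlled largely through Rap1, Fhl1, Ifh1 and Sfp1, under the TOR and protein kinase A pathways, and the whole set is known to fall under stress and nutrient shortage. Most of these genes are present in yeast as a pair of near-identical copies left by the duplication of the genome.

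Some facts of the whole series bear on every value. PHO80 read -2.93, -2.83 and -2.86 on the wild-type arrays and stayed at background level on all 3 deletion arrays, which is at least 27.4-fold lower (the wild-type mean against the lowest signals well above background on the deletion arrays). HIS3, LEU2 and MET17, which BY4741 lacks, were above background on 0 of the 6 arrays, but URA3, which it also lacks, was bright in both strains (means of 3.75 in wild type, 5.78 with the deletion). In both strains the first and the third array were closer to one another than repeated spots of a probe are, so each strain has 2 samples in the tests, the mean of those arrays and array 2. All wild-type arrays lay near that noise, so p-values measure a spread that may be technical, whereas deletion array 2 stood well apart from its companions. The strains were hybridised on separate slides, and an effect of the slide and one of the strain cannot be told apart.

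Small subunit genes were lower in the deletion strain almost throughout. By limma at an adjusted p under 0.05, 51 of the 56 fell and none rose, where 34.6% of all 5863 genes tested were called lower and 19.2% higher. At an unadjusted p under 0.05 the number that rose was also 0. The median log2 fold change of the 56 genes was -2.09, a 4.26-fold lower signal, against -0.28 over all genes tested. Of the 51, 31 fell at least 4-fold, where 7.25% of all genes did so, and 8 fell at least 8-fold, where 1.36% did.

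The median signal of the 56 genes was 1.99, 1.99 and 1.98 on the wild-type arrays against 0.11, 0.14 and 0.08 on the deletion arrays. Every deletion array thus had a lower median than every wild-type array. Within an array, the distance of that median above the median of all tested genes is the same under any scaling that subtracts 1 value per array. It was 3.17, 3.18 and 3.17 in wild type against 1.51, 1.64 and 1.47 in the deletion strain. The 56 probes gave 5.23%, 5.24% and 5.26% of the summed probe signal on the wild-type arrays against 1.17%, 1.24% and 1.24% on the deletion arrays, where the sum weights each probe by its own brightness and is not a share of messenger RNA molecules. In bulk RNA, less of these transcripts in every cell and fewer cells that carry them cannot be told apart.

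On 54 of the 56 genes all 3 deletion arrays read below all 3 wild-type arrays, where 50.9% of all tested genes did so. RPS27A was the single gene with all deletion arrays above, and RPS30B the single gene whose arrays overlapped. The strains thus did not overlap on 55 genes, where 82% of all tested genes did not. Over the 3 wild-type arrays a gene varied by a median of 0.05 between its highest and lowest reading. Over the deletion arrays that range had a median of 0.38, with array 2 outside the readings of arrays 1 and 3 on all 56 genes. This was not particular to the 56, as over all 5863 genes tested array 2 lay above both on 2920 and below both on 2788. The plot of each gene on each array shows both the depth of the fall and the separate place of deletion array 2.

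**Figure D1:**
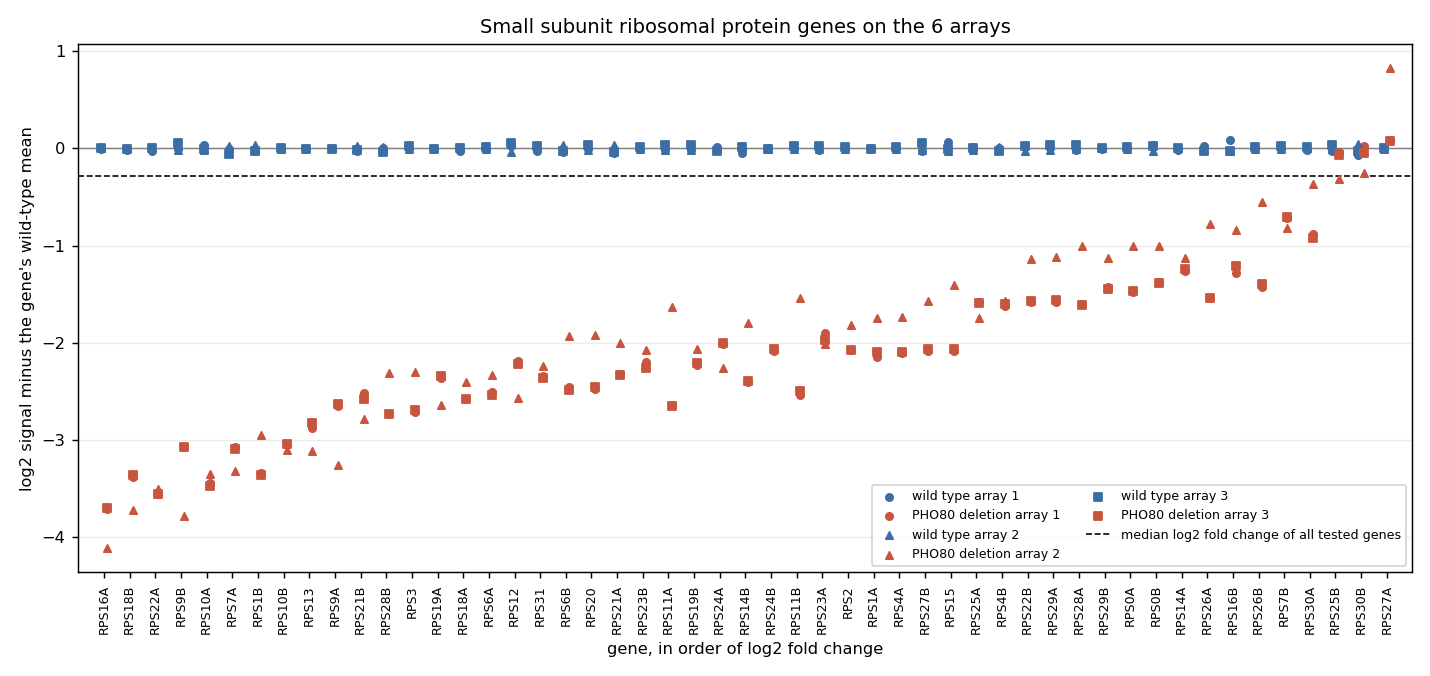
The 51 small subunit genes reported by name on the x axis, in order of log2 fold change, with the log2 signal on each array minus the gene's wild-type mean on the y axis. Blue marks are the 3 wild-type arrays and red marks the 3 deletion arrays, with a triangle for array 2. The dashed line is the median over all genes tested (-0.28). Deletion arrays 1 and 3 lie near the wild-type level for RPS27A, RPS30B and RPS25B, with array 2 above it for RPS27A, and the fold change goes down to -3.91 for RPS16A.

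The 8 proteins encoded by a single gene have no second copy that could stand in, and all 8 genes fell, with a median log2 fold change of -2.25. RPS13, for a protein of the body close to the platform, read 2.19, 2.20 and 2.19 in wild type against -0.68, -0.92 and -0.63 in the deletion strain, the deepest fall of the 8 (-2.99 ± 0.14 SE, adjusted p = 0.00233, limma). RPS3, for the protein that lines the mRNA entry channel and has a dedicated chaperone, read 4.06, 4.05 and 4.09 in wild type against 1.34, 1.76 and 1.37 in the deletion strain (-2.50 ± 0.18). In both genes the strains were far apart, but deletion array 2 lay below its companions for RPS13 and above them for RPS3.

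RPS12, for a head protein, read 4.12, 4.06 and 4.15 in wild type against 1.90, 1.52 and 1.87 in the deletion strain (-2.39 ± 0.17). RPS31, whose product is made as a fusion to ubiquitin and is cut from it, read 5.84, 5.88 and 5.90 in wild type against 3.54, 3.63 and 3.51 in the deletion strain (-2.29 ± 0.13). The fall of RPS31 varied little between the deletion arrays. RPS20, for a head protein next to Rps3, read 3.73, 3.72 and 3.77 in wild type against 1.26, 1.81 and 1.28 in the deletion strain (-2.20 ± 0.22). The strains did not overlap in RPS20, and deletion array 2 was the nearest of the 3 to wild type.

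RPS2, for a protein of the mRNA entry site that affects decoding accuracy, read 4.14, 4.14 and 4.16 in wild type against 2.06, 2.33 and 2.07 in the deletion strain (-1.95 ± 0.15). RPS15, for a head protein that the pre-ribosome needs for its export from the nucleus, read 2.32, 2.22 and 2.24 in wild type against 0.16, 0.85 and 0.19 in the deletion strain. Its fold change was the smallest of the 8 (-1.74 ± 0.26, adjusted p = 0.0103, limma). The 8 genes thus ran from 3.33-fold to 7.92-fold lower. The genes with a copy ran from a log2 fold change of -3.91 to 0.45, but they number 48, and a larger set tends to span a wider range. No test of the 2 sets against each other was made.

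The 5 deepest falls were all in genes that have a copy. RPS16A, whose protein reaches with its tail to the transfer RNA in the P site, read 2.64, 2.65 and 2.65 in wild type against -1.06, -1.47 and -1.05 in the deletion strain, 15-fold lower (-3.91 ± 0.18, adjusted p = 0.00233, limma). RPS18B, for a head protein that bridges to the large subunit, read 1.55, 1.57 and 1.56 in wild type against -1.82, -2.16 and -1.80 in the deletion strain, 11.7-fold lower (-3.55 ± 0.16). In both genes deletion array 2 was the lowest of the 3.

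RPS22A, for a protein of the body, read 3.67, 3.71 and 3.70 in wild type against 0.14, 0.19 and 0.14 in the deletion strain, 11.6-fold lower (-3.53 ± 0.11, adjusted p = 0.00182, limma). Here the 3 deletion arrays lay close together. RPS9B, for an early-binding protein that affects decoding accuracy, read 1.31, 1.30 and 1.37 in wild type against -1.75, -2.46 and -1.75 in the deletion strain, 10.8-fold lower (-3.43 ± 0.27). RPS10A, for a head protein, read 3.18, 3.13 and 3.14 in wild type against -0.31, -0.20 and -0.33 in the deletion strain, 10.6-fold lower (-3.40 ± 0.11). The fall of RPS9B was deeper on deletion array 2 and that of RPS10A a little shallower. Among all genes tested, 10 of the 56 stood in the 100 deepest falls and 36 among the 10% with the lowest fold changes.

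Of the 5 genes nearest to no change, 4 did not pass the test. RPS27A, for a protein of the platform side that carries a zinc finger, read 1.75, 1.73 and 1.75 in wild type against 1.83, 2.57 and 1.81 in the deletion strain, with a log2 fold change of 0.45 ± 0.29 (adjusted p = 0.245, limma). Its arrays did not overlap, but arrays 1 and 3 lay only just above wild type, and the fold change was 0.08 without deletion array 2. RPS30B, one of the genes for a small basic protein near the mRNA entry, read 0.05, 0.16 and 0.08 in wild type against 0.13, -0.15 and 0.06 in the deletion strain (-0.14 ± 0.14, adjusted p = 0.45). RPS25B, for a head protein that certain viral internal initiation sites need, read 2.84, 2.86 and 2.90 in wild type against 2.83, 2.55 and 2.80 in the deletion strain (-0.18 ± 0.14, adjusted p = 0.335). The direction of RPS30B and RPS25B depended on the scaling: with each array centred on its median they were at 0.16 and 0.11, whereas with quantile normalization RPS25B was called lower (-0.57, adjusted p = 0.0469).

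RPS30A, the copy of RPS30B, read 2.12, 2.14 and 2.15 in wild type against 1.26, 1.77 and 1.22 in the deletion strain (-0.63 ± 0.22, adjusted p = 0.0733, limma). RPS7B, for a body protein that is marked with ubiquitin by Not4, read 0.23, 0.22 and 0.25 in wild type against -0.49, -0.59 and -0.48 in the deletion strain and was called lower (-0.77 ± 0.11, adjusted p = 0.00899). Without wild-type array 2, a fit that has 1 wild-type sample and takes its spread from the deletion arrays, the fold change of RPS7B was -0.77 and its adjusted p was 0.192. The fifth gene that missed the threshold was RPS26B (-0.98 ± 0.33, adjusted p = 0.0692), for a protein at the mRNA exit channel. It read 2.05, 2.04 and 2.06 in wild type against 0.62, 1.5 and 0.65 in the deletion strain, so all deletion arrays were lower and array 2 lay far from the other 2. Its fold change without deletion array 2 was -1.41.

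Within several families the A and the B gene fell by unequal amounts. The array carried 1 probe per gene, and the copies of a family share most of their coding sequence, so a probe may bind the transcripts of both. The probe sequences were not used here, and how far each probe separates its pair was not tested. The level of a probe is not comparable with that of another, but the change in the ratio of A to B between strains is, and it is independent of the scaling that subtracts 1 value per array. The median size of the difference in log2 fold change between A and B was 0.50 over the 24 pairs, and 8 pairs differed by over 1. The 33 large subunit pairs were similar, with a median of 0.55 and 11 pairs over 1. For 21 of the 24 small subunit pairs the ratio of A to B on the deletion arrays lay wholly to 1 side of the wild-type arrays. Of all 57 small and large subunit pairs 86% did so. Among the 21, the A gene was the lower one in 12 pairs and the B gene in 9. With 2 samples per strain, an exact two-sided permutation test of the ratio cannot go below p = 0.333, so no pair could pass a threshold by itself.

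**Figure D2:**
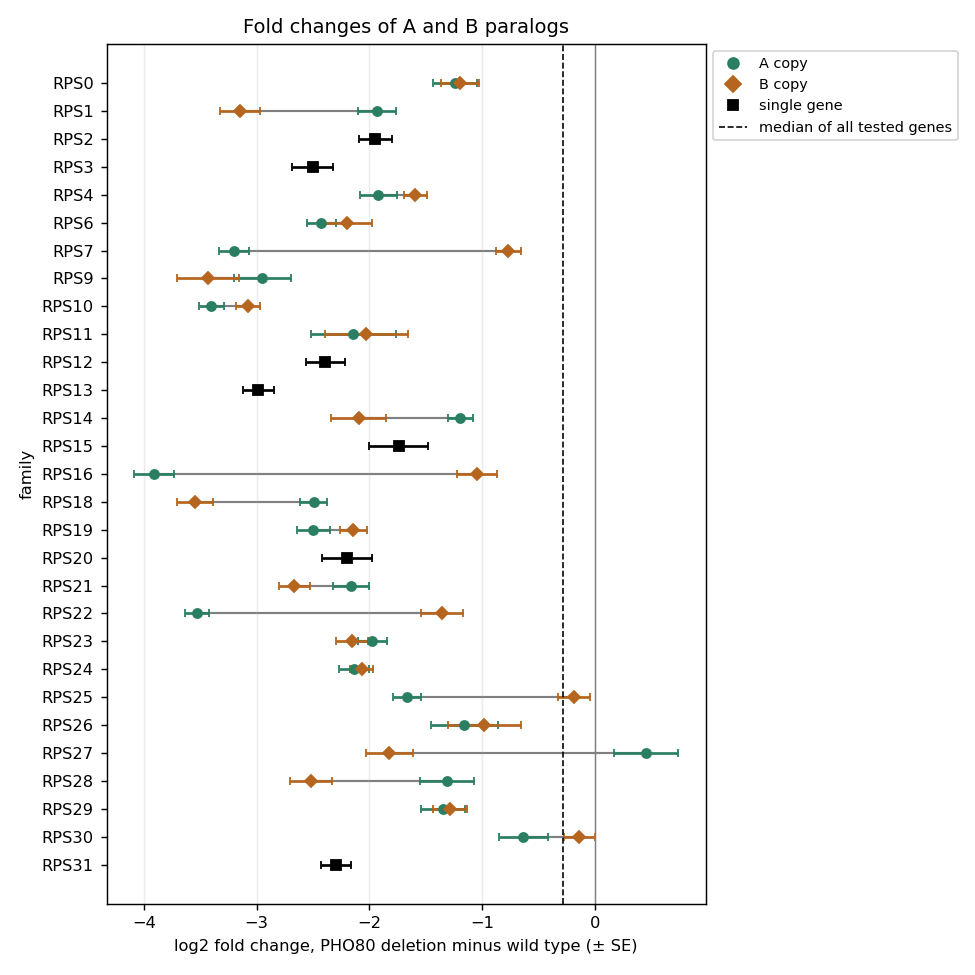
The log2 fold change of each gene with its SE from limma (2 samples per strain), 1 family per line, for the families reported by name. Circles are A genes, diamonds B genes, squares families with a single gene, and the dashed line is the median of all tested genes (-0.28). The pairs RPS16, RPS7, RPS27 and RPS22 are drawn far apart, whereas RPS0, RPS24 and RPS29 nearly coincide.

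RPS16 was the most unequal pair. Beside the 15-fold fall of RPS16A, RPS16B read 1.89, 1.78 and 1.78 in wild type against 0.53, 0.97 and 0.59 in the deletion strain, 2.06-fold lower (-1.04 ± 0.18, adjusted p = 0.0137, limma). The difference in log2 fold change between A and B was -2.87 ± 0.41 (SE over 2 samples per strain; exact permutation p = 0.333, the smallest possible). Deletion array 2 widened it, as RPS16A was lower and RPS16B higher there, and without that array it was -2.46. In the fit with 1 wild-type sample, without wild-type array 2, the fold change of RPS16B was -1.07 and its adjusted p was 0.0576.

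For RPS7, the A gene read 1.65, 1.68 and 1.6 in wild type against -1.42, -1.66 and -1.43 in the deletion strain (-3.20 ± 0.13, adjusted p = 0.00233, limma), while RPS7B fell by 0.77. The difference was -2.43 ± 0.07. For RPS27 the order was the opposite, with the B gene as the lower one. RPS27B read 3.65, 3.65 and 3.72 in wild type against 1.59, 2.10 and 1.6 in the deletion strain (-1.82 ± 0.21, adjusted p = 0.00599), against the 0.45 of RPS27A, a difference of 2.28 ± 0.12. RPS27A and RPS27B were the only pair of the 24 whose fold changes had opposite signs in the test with 2 samples per strain.

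For RPS22, the B gene read 1.73, 1.67 and 1.72 in wild type against 0.12, 0.56 and 0.13 in the deletion strain (-1.36 ± 0.19), less than the -3.53 of RPS22A by 2.17 ± 0.19. RPS25A read 3.44, 3.41 and 3.43 in wild type against 1.85, 1.68 and 1.84 in the deletion strain (-1.66 ± 0.12, adjusted p = 0.00319, limma), whereas RPS25B did not pass the test. The RPS25 difference was -1.48 ± 0.05 (-1.41 with quantile normalization). On every deletion array RPS25A stood further below its wild-type readings than RPS25B did.

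The RPS1 genes encode a large protein near the mRNA exit that contacts initiation factors. RPS1A read 2.39, 2.39 and 2.39 in wild type against 0.25, 0.65 and 0.29 in the deletion strain (-1.93 ± 0.17). RPS1B read 1.82, 1.88 and 1.82 in wild type against -1.49, -1.09 and -1.51 in the deletion strain (-3.15 ± 0.18, adjusted p = 0.00244, limma). Both copies moved by a similar amount on deletion array 2, so the difference of 1.22 ± 0.03 hardly varied between arrays.

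**Figure D3:**
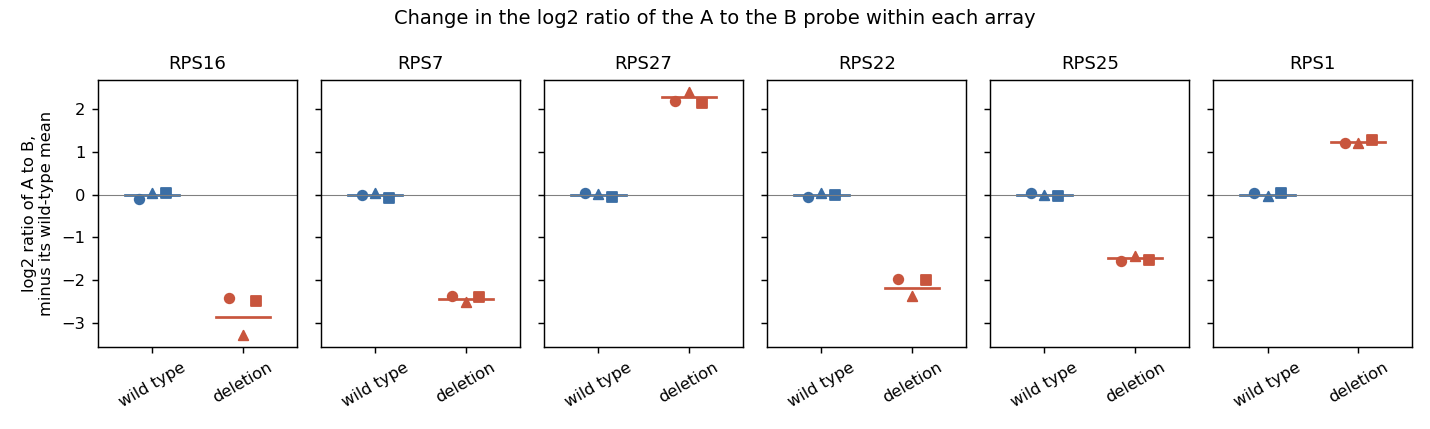
The log2 ratio of the A to the B probe within each array, minus its wild-type mean, for the 6 pairs with the largest difference. Circles, triangles and squares are arrays 1, 2 and 3, and bars are the mean of the 2 samples of a strain. Deletion arrays lie below wild type for RPS16, RPS7, RPS22 and RPS25, with means of -2.87, -2.43, -2.17 and -1.48, and above it for RPS27 and RPS1, with means of 2.28 and 1.22.

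Differences over 1 were also seen in 2 further pairs. The RPS28B gene, whose protein binds its own messenger RNA and speeds its decay, fell by 2.52 and RPS28A by 1.31 (difference 1.21 ± 0.09, but 0.69 with quantile normalization). RPS18B fell by 3.55 and RPS18A by 2.49 (difference 1.05 ± 0.26). In RPS14, the platform protein that represses splicing of its own RPS14B transcript, the B gene fell by 2.10 and the A gene by 1.19 (difference 0.90 ± 0.24). In these 3 pairs the B gene was the lower one on every deletion array relative to wild type.

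Some differences of intermediate size depended on deletion array 2. The RPS21 difference was 0.50 ± 0.28 and 0.22 without that array, and the RPS30 difference was -0.50 ± 0.39 and -0.89 without it. RPS9 stayed close, with fold changes of -2.95 for A and -3.43 for B (difference 0.48 ± 0.05, but 0.84 with quantile normalization).

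The other pairs named here differed less, and the order among them moved with deletion array 2. The difference was -0.35 for RPS19, -0.33 for RPS10 and -0.33 for RPS4, and without that array it was -0.13, -0.42 and -0.49. RPS10A and RPS10B both fell over 8-fold (-3.40 and -3.08). RPS19A and RPS19B fell by 2.50 and 2.14, RPS6A and RPS6B, for the protein phosphorylated downstream of TOR, by 2.43 and 2.20, and RPS4A and RPS4B by 1.92 and 1.59. RPS23A and RPS23B, for the protein of the decoding centre, fell by 1.97 and 2.15, RPS24A and RPS24B by 2.14 and 2.07, and RPS11A and RPS11B by 2.14 and 2.03. The shallowest of the matched pairs were RPS29 (-1.35 and -1.28), RPS0 (-1.24 and -1.19), whose proteins are needed to mature the ribosomal RNA of the small subunit, and RPS26 (-1.16 and -0.98). RPS26A was called lower (adjusted p = 0.0366, limma), but not with median centring (-0.87), where its adjusted p was 0.0985. In the fit with 1 wild-type sample its fold change was -1.16 and its adjusted p was 0.0691. RPS21A and RPS21B had -2.16 and -2.67.

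Across the 24 pairs the fold change of A was weakly related to that of B (Pearson r = 0.217, Spearman rho = 0.281), a description over genes measured on the same 6 arrays.

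Deletion array 2 read above both companions on 40 of the 56 genes and below both on 16, with a median shift of 0.28. Over all 5863 genes tested it was above both on 2920 and below both on 2788, with a median shift of 0.015. The 76 large subunit genes leaned the same way as the small subunit genes, with 57 above, 17 below and a median shift of 0.34. Among the 56 genes the shift was largest for RPS11A and RPS11B, at 1.01 and 0.98, and RPS26B stood 0.86 higher. RPS9A and RPS9B were shifted the other way, by -0.62 and -0.71. In 16 of the 24 pairs both copies were shifted the same way. As 34 of the 48 genes in pairs were shifted up and 14 down, many pairs would share a direction without any link between copies. Such a link was not tested. The part of these shifts in the fold changes was not tested beyond leaving the array out, which gave a median fold change of -2.19 over the 56 genes, while array 2 alone gave -1.93.

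By place in the subunit, 21 of 22 genes for head proteins fell, with a median of -2.20, and 30 of 34 for body and platform proteins, with a median of -2.0. By class, all 24 genes for proteins that also occur in bacteria fell, with a median of -2.12. Of the 32 for proteins of eukaryotes and archaea 27 fell, with a median of -2.07, and the 5 genes that missed the threshold were all in this class. The medians of these sets differ by far less than the genes within them, and no difference between the sets was tested.

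**Figure D4:**
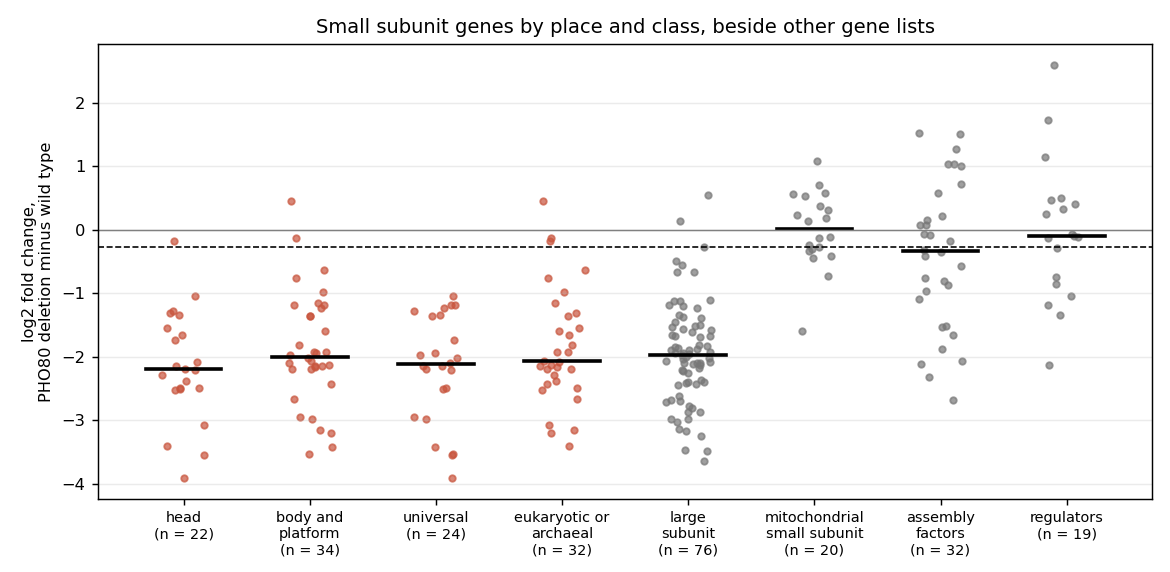
Log2 fold changes of single genes (points, spread sideways for clarity) with the median of each set (black bars) and of all tested genes (dashed line, -0.28). Red points are the small subunit genes, drawn first by place (head, body and platform) and again by class, and grey points are the large subunit, the mitochondrial small subunit, assembly factors and regulators. The 4 red sets have medians from -2.20 to -2.0, near the large subunit (-1.97) and below the remaining sets.

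Of the 76 large subunit genes 69 were called lower and 1 higher, with a median of -1.97. Within each array the median of the small subunit genes lay above that of the large subunit genes by 0.26, 0.26 and 0.27 in wild type against by 0.41, 0.35 and 0.37 in the deletion strain. Of the 20 genes for the small subunit of the mitochondrial ribosome 1 was called lower and 3 higher, with a median of 0.01. ASC1, whose product sits on the head of the small subunit but is not named RPS, read 1.92, 1.88 and 1.86 in wild type against 0.08, 0.37 and 0.07 in the deletion strain (-1.66 ± 0.15, adjusted p = 0.00389, limma).

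Ribosomal protein genes of the 2 subunits are neighbours at several places in the gene order of RefSeq's table, and the neighbours named here were chosen after their values were seen. RPS9B and RPL21A, adjacent on the same strand, had nearly equal fold changes of -3.43 ± 0.27 and -3.47 ± 0.19. The RPS16 genes each lie next to an RPL13 gene and point away from it, so that each pair has the same upstream stretch between them. RPS16A had a fold change of -3.91 ± 0.18 beside RPL13B with -1.46 ± 0.16, and RPS16B had -1.04 ± 0.18 beside RPL13A with -3.17 ± 0.16. In either place the deeper fall was thus in a different subunit's gene, and the difference between these neighbours was 2.45 and 2.13. RPS22A and RPS14B, which point towards each other, had -3.53 ± 0.11 and -2.10 ± 0.24.

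Among 32 genes for factors that build the small subunit, 10 fell and 6 rose, shares close to the 34.6% lower and 19.2% higher of all genes tested, and the median of -0.33 was near the -0.28 of all genes. RCL1 (-2.69 ± 0.37) and UTP22 (-2.31 ± 0.44), which act in the early nucleolar particle, had the lowest values. YAR1, the dedicated chaperone of Rps3, rose by 1.53 ± 0.22 while RPS3 itself fell, and BUD23, a methyltransferase of the small subunit RNA, rose by 1.51 ± 0.22. The counts of assembly genes changed in the fits that leave 1 sample in a strain, where the counts over all genes changed too.

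Of 19 genes listed as regulators of ribosomal protein genes, 5 fell and 5 rose, with a median of -0.10. Beside them stand the same shares of all genes tested (34.6% lower and 19.2% higher). The list includes genes with other targets, as given below. TOR1, a kinase of the TOR pathway, had the lowest value (-2.14 ± 0.36, adjusted p = 0.0133, limma), followed by TBF1, which binds promoters of small nucleolar RNA genes (-1.35 ± 0.15, but -0.61 with quantile normalization). TOD6, a repressor of ribosome biogenesis genes, read 0.31, 0.32 and 0.30 in wild type against 3.04, 2.81 and 3.0 in the deletion strain and rose by 2.60 ± 0.13. CBF1, which binds centromeres and promoters of methionine genes, rose by 1.72 ± 0.20. The regulator counts were 2 lower and 3 higher without wild-type array 2, 8 and 8 without deletion array 2, and 3 lower with quantile normalization.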

How the data were processed

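Per the labels' protocols, total RNA was labelled with Cy3 and hybridised in 1 colour. The deposited scanner files were made with Agilent Feature Extraction 10.1.1.1, per the submitters' processing notes, and hold spot intensity on a linear scale, with the background already taken off within each array, per the file headers. The series' value table, deposited by the authors, holds 1 intensity per probe. Its scale and direction matched the scanner files (r of log2 values 0.997 to 0.999) and it was not centred. The median of the 3 wild-type columns was 1120, 1140 and 950.5, and that of the 3 deletion columns 1120, 746.5 and 1670, and how its spots were combined is not known.

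Control spots and those marked as outliers (1.12% to 1.88%) were dropped. From the log2 of the processed signal the 75th percentile of the array (2404 to 5011) was subtracted, and the 7 spots of a probe were averaged. Genes well above background on at least 3 arrays were tested (5863). Of 6256 probes, 5756 had a symbol in RefSeq's table of assembly R64, and coordinates are left out because no source used here names the array's build. Promoter motifs and introns were not analysed here. Arrays of a strain were averaged where their median squared difference over spot variance did not exceed the 0.484 of spot noise. This merged arrays 1 and 3 both in wild type (0.435) and with the deletion (0.412). The test was limma 3.58.1 (R 4.3.3) with lmFit, eBayes with trend and Benjamini-Hochberg adjustment over all tested genes. On simulated data with 200 of 5863 genes changed, the fit recovered a mean of 25.05% of genes changed by 1 log2 unit. For a change of 2 it recovered 59.35%. In the real data 53.8% of genes were called, so the recovered shares may not hold for them. A gene that was not called may thus still have changed. Normexp used the median spot signal, since the files hold no mean. The members, lists and the averaging rule were chosen with earlier results of these data known. A few genes are not reported here by name but remain in all counts and medians. Otherwise values on every array are given for the 5 largest falls, the 5 members nearest to no change, the 8 single genes and the 6 most unequal pairs. Assembly and regulator lists are given by their counts and their 2 lowest and 2 highest members. Precision is limited by the number of arrays. Alternatives covered the samples counted, scaling, background, filter, variance model, left-out arrays, the value table and a minimum fold. Plots were made in matplotlib 3.10.9.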

Additional observations from a re-analysis of the deposited data

How the results depend on the processing

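The count of small subunit genes called lower stayed between 48 and 54 under all 17 alternatives, and no gene was called higher except RPS27A without deletion array 2 (1 gene, log2 fold change 0.08, adjusted p = 0.0131). That fit has 1 deletion sample and takes its spread from the wild-type arrays, near spot noise, so its p-values are no evidence of change between cultures. The fit without wild-type array 2 likewise has 1 wild-type sample, with its spread from the deletion arrays. Over the left-out arrays the count called lower ran from 48 to 53, that called higher from 0 to 1, and over all genes 1122 to 3289 were lower and 523 to 2200 higher. With the wild type as 1 sample 1130 genes were lower and 519 higher, and 654 were higher with a change of at least 2-fold. The median of the small subunit genes was -1.80 with median centring, where the median of all genes was 0.01 in place of -0.28, and -2.16 with quantile normalization, where that of all genes was 0.03. Relative to all genes it was -1.81, -1.81 and -2.19 under the 75th percentile, median centring and quantile normalization. The median difference between paralogs was 0.50, and 0.61 with quantile normalization. RPS25B and RPS30B changed sign with median centring (0.11 and 0.16). RPS26B and RPS30A were called lower with 6 separate arrays (adjusted p = 0.00759 and 0.00726) and with quantile normalization. With 6 separate arrays 53 small subunit genes were lower, and 53 with the replicate number as a block (2486 lower and 1485 higher over all genes). Same-numbered arrays did not deviate together (correlations -0.116, -0.08 and 0.01). As the wild-type arrays differ by about spot noise, these values cannot decide whether the numbers pair the samples. Of 896 values of single small subunit genes under alternatives, 876 kept their direction and side of the threshold. Of 336 paralog differences 11 moved beyond the spread between arrays and 0 reversed. The cause of these changes was not tested. Signal over background did not limit these bright genes, but a probe may bind both copies of a family.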
